A study of Bos taurus with 90 samples.

Results

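Liver transcripts of Charolais (CH) and Holstein-Friesian (HF) steers were compared at the end of the second high-concentrate phase (H2), the finishing period. The comparison used the 30 of 90 libraries whose diet label was H2, taken by breed label as 17 CH libraries from 9 low and 8 high residual feed intake (RFI) steers and 13 HF libraries from 5 low and 8 high RFI steers. RFI is the difference between the feed a steer ate and the feed predicted from its weight and growth, so that low RFI steers are the more feed efficient. All 30 steers had free access to one ration made up of rolled barley at 860 g/kg, soya bean meal and molasses at 60 g/kg each, and minerals with vitamins at 20 g/kg, with a limited amount of grass silage. Each library came from a punch biopsy of 1 steer, and steers are named here by the number in their label. RFI was ranked within breed and phase, and the steers were bought from commercial herds. HF steers were on average older than CH steers when the first high-concentrate phase (H1) began, so breed cannot be told apart from age or herd of origin.

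Charolais is a large, lean beef breed, whereas Holstein-Friesian is a dairy breed that partitions more energy to milk and, in steers, to internal fat. The liver is mostly hepatocytes, which make plasma proteins, glucose, bile acids and lipids and inactivate foreign compounds. A biopsy also holds endothelial cells, bile duct cells and resident or blood-borne leukocytes. A breed difference in bulk liver RNA can come from any of these cells, and fewer cells of a type cannot be told apart from less RNA per cell. The hepatocyte transcript APOC3, which encodes an apolipoprotein of triglyceride-rich lipoproteins, was at 833 to 3915 CPM (counts scaled to a library total of 1000000) in every H2 library, and the fibrinogen chain FGA was at 8587 or more.

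The H2 libraries held 10579794 to 37835024 reads assigned to genes, and their median depth was 19772648 for CH and 16581187 for HF. Of the first 3 principal components over 2000 variable genes, component 3, with 6.96% of the variance, ordered the libraries by breed. CH libraries lay between -22.9 and 2.39 on it and HF libraries between 6.80 and 15.02, whereas both breeds overlapped on component 1 (32.4% of the variance). CH steer 493 lay farthest out on component 1 at -66.3. CH steer 419 and HF steer 1639 stood apart in the acute phase transcript HP (haptoglobin), with 26048 and 7623 CPM against a median of 190 for CH and 154 for HF. Number 1797 was labelled CH under H1 and HF under H2, and the 2 libraries labelled HF 5612 under H2 and on zero-grazed grass (ZG) were unlike each other, as described further on.

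EdgeR's quasi-likelihood test with RFI group as a covariate called 71 of 12384 genes, or 0.573%, at an adjusted p under 0.1 (Benjamini-Hochberg), the level the study worked at. Expression was higher in CH for 34 of these differentially expressed genes (DEGs) and higher in HF for 37. An unadjusted p under 0.05 was reached by 841 genes (6.79%), where 619 would be expected without any difference. The absolute log2 fold change of the 71 DEGs ranged from 0.27 to 3.76 with a median of 1.03, and 37 of them differed by at least 2-fold. The median absolute log2 fold change over all genes tested was 0.09. The breeds overlapped for every gene tested (0% of 12384 without overlap). For 23 of the 71 DEGs at least 10 libraries of the higher breed lay beyond every library of the other breed. Of these, 20 were higher in CH and 3 in HF, and 10 libraries are a smaller part of 17 CH than of 13 HF libraries. The DEGs were selected on these same values, and the share over all genes tested was not counted.

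**Figure D1:**
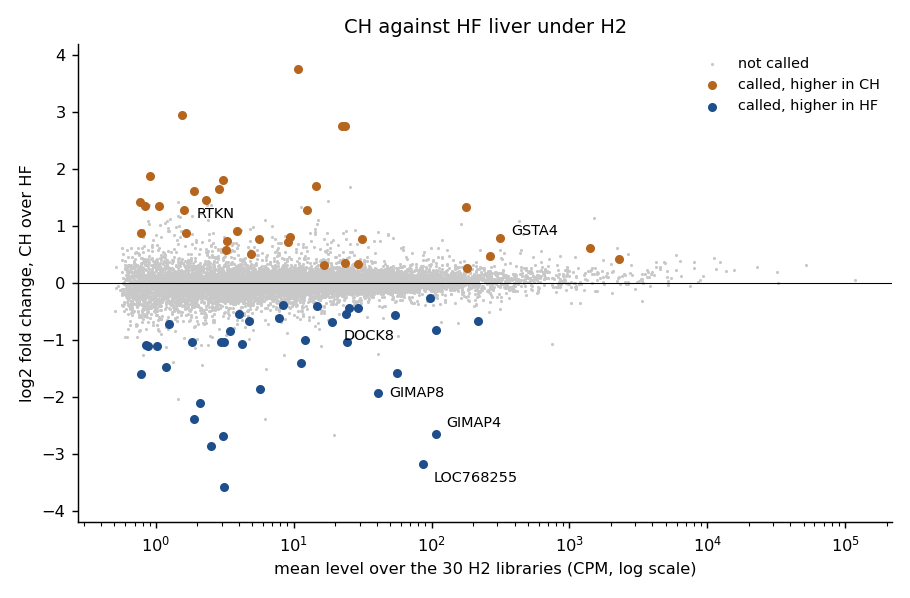
Log2 fold change of CH over HF under H2 (y axis) against the mean level over the 30 H2 libraries in CPM (x axis, log scale), with 1 point for each of the 12384 genes tested. The 34 DEGs higher in CH and the 37 higher in HF are coloured and those with a symbol are named, and LOC768255, GIMAP4 and GIMAP8 are the lowest of the named points.

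The count table gives Ensembl identifiers, and symbols were known here for just 327 of them, all genes that the study listed for RFI. Of these, 304 were tested, 26 had an unadjusted p under 0.05 and 6 were DEGs. Over all genes tested, 6.79% had such a p and 0.573% were DEGs. Because the symbols belong to genes picked for another contrast in partly the same libraries, they are no fair sample of the breed DEGs. The 6 were GIMAP8, GIMAP4, LOC768255 and DOCK8, all higher in HF, and GSTA4 and RTKN, both higher in CH.

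GIMAP8 and GIMAP4 encode GTPases of the immunity-associated protein family, which is known mainly for the survival and development of lymphocytes. In the RefSeq annotation of assembly ARS-UCD2.0, GIMAP8, GIMAP4 and LOC768255 lie in that order in 1 cluster, with 7 genes between GIMAP8 and GIMAP4 and 6 between GIMAP4 and LOC768255, and the next gene after LOC768255 is GIMAP6. Members of such clusters resemble each other in sequence, so reads of near-identical copies could have been split between genes or discarded, and the levels are uncertain to that extent. The reads came from a stranded kit, but the strand setting of the counts was not given in the sources used here.

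LOC768255 had the largest difference of the 6. Over the 17 CH libraries its level was lowest at 2.36, had a median of 4.64 and was highest at 118 CPM. Over the 13 HF libraries it was lowest at 4.33, had a median of 99.2 and was highest at 436 CPM. The mean was 26.4 ± 37.9 CPM (SD, n = 17) for CH and 164 ± 135 CPM (SD, n = 13) for HF, a 9.05-fold difference (-3.18 ± 0.60 SE on the log2 scale, edgeR adjusted p = 0.0094). Most CH libraries were far below most HF libraries, but the ranges overlapped in both directions.

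The overlap came from 2 separate levels within each breed. In 5 CH libraries LOC768255 was between 53.6 and 118 CPM, and in the other CH libraries it did not pass 7.38 CPM. In 11 HF libraries it was between 59.8 and 436 CPM, and in the other two, of steers 5609 and 5612, it was at 4.33 and 5.18 CPM. No library lay between 7.38 and 53.6 CPM. The 16 libraries above this gap comprised 0 of 9 low RFI and 5 of 8 high RFI CH steers, and 4 of 5 low RFI and 7 of 8 high RFI HF steers. The study lists LOC768255 for RFI in CH steers under H2, so the CH part of this split is not independent of that list. Under H1, with the same ration, the CH libraries divided by RFI the other way. Low RFI CH steers 950, 1100, 1792, 1797, 1816, 1831 and 1846 were at 41.0 to 95.8 CPM, and 555 and 579 at 3.78 and 5.24. Of the high RFI CH steers, 1078, 447 and 1496 were at 77.4 to 197 CPM, and the rest did not pass 5.08 CPM. A gap of at least 3-fold between neighbouring libraries, with at least 3 libraries on each side, was present in 4 of the 71 DEGs, where 0.218% of all genes tested had one. These were LOC768255, GIMAP4, the unnamed ENSBTAG00000004459 and 1 further identifier without a symbol. The gap was defined after the values were seen.

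GIMAP4 followed the same division. Its level ranged from 4.99 through a median of 10.0 to 165 CPM for CH and from 8.73 through a median of 164 to 506 CPM for HF. The same 16 libraries that were high for LOC768255 were high for GIMAP4, at 72.7 CPM or more, and the highest of the rest was at 13.6 CPM. GIMAP4 was 6.27-fold higher in HF (-2.65 ± 0.53 SE on the log2 scale, edgeR adjusted p = 0.016).

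GIMAP8 separated the libraries at another point. For CH it ranged from 9.93 through a median of 16.6 to 25.9 CPM, and for HF from 18.1 through a median of 33.8 to 179 CPM. The 5 HF steers 1661, 5632, 1645, 1797 and 2101 were at 86.1, 119, 170, 175 and 179 CPM, and no other H2 library passed 42.9 CPM. All 5 were also above the gap for LOC768255 and GIMAP4, but 6 HF libraries high for those genes were at 42.9 CPM or below for GIMAP8. Such a level was also seen in 1 library labelled CH, of steer 437 under ZG, at 172 CPM for GIMAP8. No other CH library of the series passed 34.8 CPM for GIMAP8. The same ZG library was at 12.5 CPM for ENSBTAG00000037539, a DEG higher in HF, where no other CH library passed 4.83 CPM. For ENSBTAG00000009049, a DEG higher in CH, it was at 6.68 CPM. Whether its breed label is right was not tested. The mean of GIMAP8 was 17.6 ± 5.13 CPM (SD, n = 17) for CH and 71.9 ± 65.7 CPM (SD, n = 13) for HF, a 3.83-fold difference (-1.94 ± 0.33 SE on the log2 scale, edgeR adjusted p = 0.0029). It remained at -1.49 (adjusted p = 0.024 from edgeR) without HF steer 1797, 1 of the 5 high libraries.

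**Figure D2:**
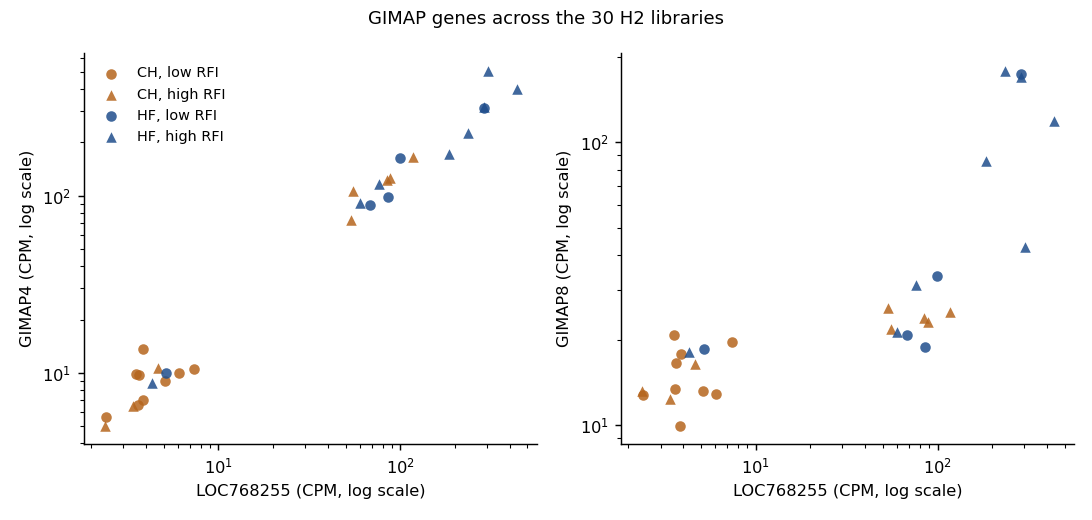
GIMAP4 (left) and GIMAP8 (right) against LOC768255 in CPM on log scales, with 1 point for each of the 30 H2 libraries, coloured by breed and shaped by RFI group. GIMAP4 and LOC768255 split the libraries at the same place, with 16 libraries in the upper group, whereas GIMAP8 is at 86.1 CPM or more in 5 HF libraries and at 42.9 CPM or less in the rest.

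The study lists LOC768255 and GIMAP4 as differing between RFI groups of CH steers under H2, and they have a symbol here because it listed them. The following split by RFI therefore partly repeats values used to pick them and is no independent result. Its low RFI HF libraries include those numbered 1797 and 5612, and under H1 the CH libraries divided by RFI the other way. With low RFI steers alone, the log2 fold change was -4.63 for LOC768255 and -3.88 for GIMAP4 (edgeR adjusted p = 0.0019 for each), and they were the only 2 genes called. With high RFI steers alone the values were -1.93 and -1.57, and neither passed (adjusted p = 0.888 and 0.957 from edgeR). The difference between these RFI-specific breed effects was -2.70 ± 1.05 (SE) for LOC768255 and -2.32 ± 0.94 (SE) for GIMAP4. Unadjusted p from edgeR was 0.015 and 0.020, but the test did not pass for either gene (adjusted p = 0.9998 for both from edgeR). It called 0 of 12384 genes, of which 280 had an unadjusted p under 0.05, where 619 would be expected without any difference.

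Other genes around the cluster were taken after their values were seen. LOC511617, separated from GIMAP8 by 1 gene, had a median of 1.06 CPM for CH and 2.76 for HF, with a log2 fold change of -0.66 ± 0.25 (SE) that did not pass (adjusted p = 0.466 from edgeR). Under H1 it was called, with -0.79 ± 0.16 (SE, edgeR adjusted p = 0.0045) in all libraries and -0.58 ± 0.16 (SE, edgeR adjusted p = 0.086) in the steers without an H2 library. REPIN1, on the other side with 2 genes between, had a log2 fold change of -0.19 ± 0.34 (SE, edgeR adjusted p = 0.9999).

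DOCK8 encodes a guanine nucleotide exchange factor that activates CDC42 and is needed for the migration and survival of lymphocytes. Its level ranged from 7.35 through a median of 14.9 to 22.2 CPM for CH and from 16.7 through a median of 25.0 to 30.9 CPM for HF. In 9 of 13 HF libraries it was above every CH library, with no gap inside either breed. DOCK8 was 1.61-fold higher in HF (-0.68 ± 0.13 SE on the log2 scale, edgeR adjusted p = 0.0077). The log2 fold change was -0.70 with low RFI steers alone and -0.65 with high RFI steers alone.

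Leukocyte genes with a symbol were taken after their values were seen, to set beside GIMAP8, GIMAP4 and DOCK8. Of FCRL1, GPR174, PTPRCAP, STAP1, UNC13D, FCGR2B, CLEC12A, DOCK11 and RGS1, 0 of 9 were DEGs, 6 had values below 0 and 3 had an unadjusted p under 0.05, where 0.573% of all genes tested were DEGs and 6.79% had such a p. Those 3 were FCRL1, a receptor of B cells, with a log2 fold change of -1.13 ± 0.37 (SE), GPR174, a lymphocyte receptor, with -0.54 ± 0.21 (SE), and PTPRCAP, a partner of CD45 in lymphocytes, with -0.55 ± 0.24 (SE). FCGR2B, an Fc receptor of liver endothelium and myeloid cells, had -0.15 ± 0.16 (SE), and CLEC12A, a myeloid receptor, had 0.01 ± 0.20 (SE). The median of the 9 was -0.09, against 0.01 for all genes tested, and their summed level was 46.0 to 125 CPM for CH and 65.96 to 119 CPM for HF. FCRL1 was the only member of the B and plasma cell markers that could be matched, and none of the T and NK cell markers could. The part of leukocyte content in the differences of the GIMAP genes and DOCK8 was not tested.

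GSTA4 encodes a glutathione transferase that conjugates the products of lipid peroxidation. Its level was 192 to 593 CPM for CH, with a median of 368, and 115 to 564 CPM for HF, with a median of 229. The highest HF library, of steer 1645, was at 564 CPM and the next at 277 CPM, while CH steers 546 and 419 were lowest for CH at 192 and 215 CPM. GSTA4 was 1.73-fold higher in CH (0.79 ± 0.18 SE on the log2 scale, edgeR adjusted p = 0.036). It neighbours GSTA3 in RefSeq and belongs to a family of similar genes, so shared reads make its level uncertain too. It was the only DEG among the 6 genes matched of the 58 listed for xenobiotic metabolism, whose median log2 fold change was 0.12. The epoxide hydrolase EPHX1 and the cytochrome CYP3A5 differed by 0.21 ± 0.14 (SE) and 0.22 ± 0.13 (SE), and the 2 identifiers named GSTM1 had -0.07 and 0.03.

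RTKN was covered by few reads, with 0.664 to 3.35 CPM and a median of 2.09 for CH and 0.393 to 2.00 CPM and a median of 1.17 for HF. In 9 of 17 CH libraries it was above every HF library, and it was 1.84-fold higher in CH (0.88 ± 0.20 SE on the log2 scale, edgeR adjusted p = 0.040).

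**Figure D3:**
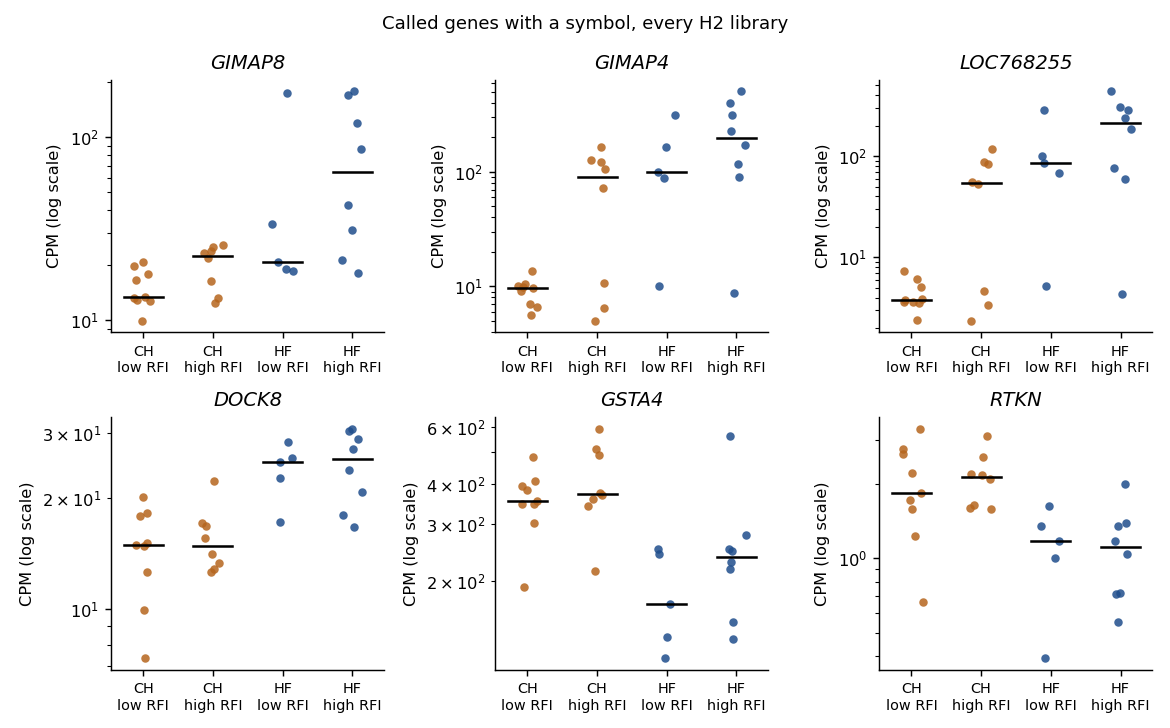
Level of the 6 DEGs with a symbol in CPM (y axes, log scale) in every H2 library, by breed and RFI group (9 CH low, 8 CH high, 5 HF low and 8 HF high RFI steers). Black bars are group medians, and DOCK8 is shifted without a gap whereas GIMAP4 and LOC768255 fall into 2 levels.

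The DEGs with the smallest p carried no symbol. ENSBTAG00000034402 was at 11.7 to 69.0 CPM for CH and 30.9 to 168 CPM for HF, with medians of 23.4 and 79.5, and 12 of 13 HF libraries were above every CH library (-1.59 ± 0.22 SE on the log2 scale, edgeR adjusted p = 7.6e-04). The exception was HF steer 2220 at 30.9 CPM. ENSBTAG00000037539 had medians of 0.506 CPM for CH and 5.42 CPM for HF (-2.86 ± 0.43 SE on the log2 scale, edgeR adjusted p = 8.4e-04), and 4 HF steers, 1639, 5632, 2071 and 5588, were at 0.290 to 0.789 CPM, among the CH values.

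ENSBTAG00000009049 was the DEG with the most libraries beyond the other breed by count, although ENSBTAG00000034402 had a larger share with 12 of 13 HF libraries. In 15 of 17 CH libraries it was above the highest HF library, and the ranges were 3.99 to 9.72 CPM for CH and 2.94 to 5.29 CPM for HF (0.77 ± 0.12 SE on the log2 scale, edgeR adjusted p = 8.4e-04). ENSBTAG00000004459 had the largest difference of all 71 DEGs, 13.5-fold (3.76 ± 0.57 SE on the log2 scale, edgeR adjusted p = 8.4e-04). It was at 20.9 to 39.8 CPM in 10 CH libraries, 4 low RFI and 6 high RFI steers, and at 0.897 to 3.14 CPM in the rest of CH. It did not exceed 1.98 CPM in any of the 13 HF libraries of H2. Of its 10 high H2 libraries, 3 were also high for LOC768255. Under H1, HF steers 2266 and 5624, which had no H2 library, were at 18.3 and 17.8 CPM for ENSBTAG00000004459. The other HF libraries of H1 did not pass 3.79 CPM.

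Genes of hepatic metabolism could be followed only where a symbol was known, and 41 entries of 28 gene lists were tested. Of these entries 1, GSTA4, was a DEG, where 0.573% of all genes tested were. No list had 80% of its members matched, so counts and medians of matched members do not stand for a list as a whole. Among these 41 entries the nearest to the threshold was CIDEC, chosen after its values were seen, which promotes the growth of lipid droplets. It ranged from 0 through a median of 0.783 to 1.83 CPM for CH and from 0.868 through a median of 1.87 to 4.28 CPM for HF, with a log2 fold change of -1.38 ± 0.36 (SE) that narrowly missed (adjusted p = 0.107 from edgeR). All 3 libraries with 0 reads for CIDEC were CH. The other matched genes of triglyceride storage were DGAT2, which makes triglyceride, with 0.17 ± 0.12 (SE), GPD1, which makes its glycerol backbone, with -0.10 ± 0.16 (SE), and the lipase inhibitor G0S2, with -0.05 ± 0.23 (SE). Of fatty acid synthesis, 2 of 17 members were matched, and TKFC and MID1IP1, an activator of acetyl-CoA carboxylase, had -0.0003 ± 0.24 (SE) and -0.32 ± 0.18 (SE).

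IRS2, the adaptor of the hepatic insulin receptor, had a median of 1.17 CPM for CH and 0.501 for HF, with a log2 fold change of 1.06 ± 0.43 (SE, edgeR adjusted p = 0.564). FBP2, a fructose bisphosphatase, had 0.93 ± 0.48 (SE, edgeR adjusted p = 0.773). Its medians were 3.71 CPM for CH and 0.459 for HF in low RFI steers, and 4.24 and 3.08 CPM in high RFI steers. The breed effect of low minus high RFI steers was 3.11 ± 0.76 (SE, edgeR unadjusted p = 2.7e-04, adjusted p = 0.9998). The study lists FBP2 for RFI in HF steers under H2, so this split is not independent of that list. In the breakdown of amino acids, 0 of 7 matched genes of 39 were DEGs, where 0.573% of all genes tested were. At that share so small a set would seldom hold a DEG. The aspartate aminotransferase GOT2 was at a median of 553 CPM for CH and 497 for HF (0.19 ± 0.08 SE on the log2 scale, edgeR adjusted p = 0.659). GLDC, of the glycine cleavage system, had -0.04 ± 0.11 (SE). None of these adjusted p-values from edgeR passed.

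The 5 acute phase proteins tested of 28 listed all had values above 0 and a median of 0.24. They held 0 DEGs, where 0.573% of all genes tested were DEGs. The fibrinogen chains FGG and FGA had 0.24 ± 0.22 (SE) and 0.22 ± 0.20 (SE). HP had 1.15 ± 1.00 (SE) and reached its highest levels in 1 steer of each breed, CH steer 419 and HF steer 1639. The interferon-stimulated gene IFI44 had 0.17 ± 0.35 (SE), the bile acid regulator NR0B2 had -0.08 ± 0.26 (SE), the clock genes NFIL3 and NR1D1 had 0.16 ± 0.14 (SE) and -0.07 ± 0.31 (SE), and the heat shock genes HSPA1A and HSPB1 had 0.14 ± 0.27 (SE) and 0.26 ± 0.25 (SE). The mitotic kinesin KIF23 had 0.01 ± 0.25 (SE) and UHRF1, which maintains DNA methylation, had -0.61 ± 0.49 (SE). APOC3 had 0.10 ± 0.17 (SE), and PKHD1, a bile duct gene, had -0.30 ± 0.16 (SE). Each value in this paragraph is a log2 fold change of CH over HF.

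The breed difference of the 71 DEGs was then measured in the other phases, to ask whether it was particular to H2. Under H1, edgeR called 556 of 13009 genes (4.27%). There 69 of the 70 DEGs tested had the direction seen under H2, against 64.5% of all genes. Under ZG it called 2 of 13057 (0.0153%), with 6 CH and 18 HF libraries. Those 2 were H2 DEGs with the same direction, which 56 of the 69 DEGs tested under ZG had, against 53.7% of all genes. Some steers were sequenced in more than 1 phase, so both fits were repeated without any steer that had an H2 library. With these 15 CH and 12 HF libraries of H1, 247 of 12838 genes (1.92%) were called, among them 23 of the 69 H2 DEGs that were tested. The direction was the same for 67 of the 69, against 65.7% of all genes, and 47 had an unadjusted p under 0.05 in that direction, where 12% of all genes had such a p in either direction. With 5 CH and 15 HF libraries of ZG, 0 genes were called and 17 of 67 DEGs had an unadjusted p under 0.05 in the same direction, where 2.83% of all genes had one in either direction.

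The fold changes were smaller under H1. In the steers without an H2 library the median absolute log2 fold change of the 69 DEGs was 0.62, against 1.03 under H2, where the DEGs had been selected. GSTA4 was called in those H1 steers (0.83 ± 0.19 SE on the log2 scale, edgeR adjusted p = 0.039), and so was ENSBTAG00000009049 (0.54 ± 0.12 SE, edgeR adjusted p = 0.036). The other identifiers did not pass there, with -1.13 ± 0.40 (SE, edgeR adjusted p = 0.210) for ENSBTAG00000034402, -1.22 ± 0.52 (SE, edgeR adjusted p = 0.332) for ENSBTAG00000037539 and 1.47 ± 0.72 (SE, edgeR adjusted p = 0.423) for ENSBTAG00000004459. GIMAP8 had -0.79 ± 0.23 (SE, edgeR adjusted p = 0.103), LOC768255 -1.57 ± 0.73 (SE, edgeR adjusted p = 0.396) and GIMAP4 -1.38 ± 0.65 (SE, edgeR adjusted p = 0.403). DOCK8 and RTKN had -0.17 ± 0.10 (SE, edgeR adjusted p = 0.537) and 0.27 ± 0.18 (SE, edgeR adjusted p = 0.576). With all H1 libraries, GIMAP8 was called at -1.03 ± 0.22 (SE, edgeR adjusted p = 0.0098), as were GSTA4 and the identifiers ENSBTAG00000034402, ENSBTAG00000009049 and ENSBTAG00000004459, whereas LOC768255, GIMAP4, DOCK8, RTKN and ENSBTAG00000037539 were not (edgeR adjusted p of 0.110 to 0.291).

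The difference between the breed effects of H2 and H1 was tested over 66 libraries. EdgeR called 0 of 13258 genes, of which 396 had an unadjusted p under 0.05, DESeq2 called 0 with 496, and limma-voom with the steer as a block called 0 with 423. The estimate for DOCK8 was -0.49 ± 0.15 (SE, edgeR adjusted p = 0.9999) and that for GSTA4 was -0.14 ± 0.24 (SE, edgeR adjusted p = 0.9999). By these tests no breed difference was shown to be larger under H2 than under H1.

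**Figure D4:**
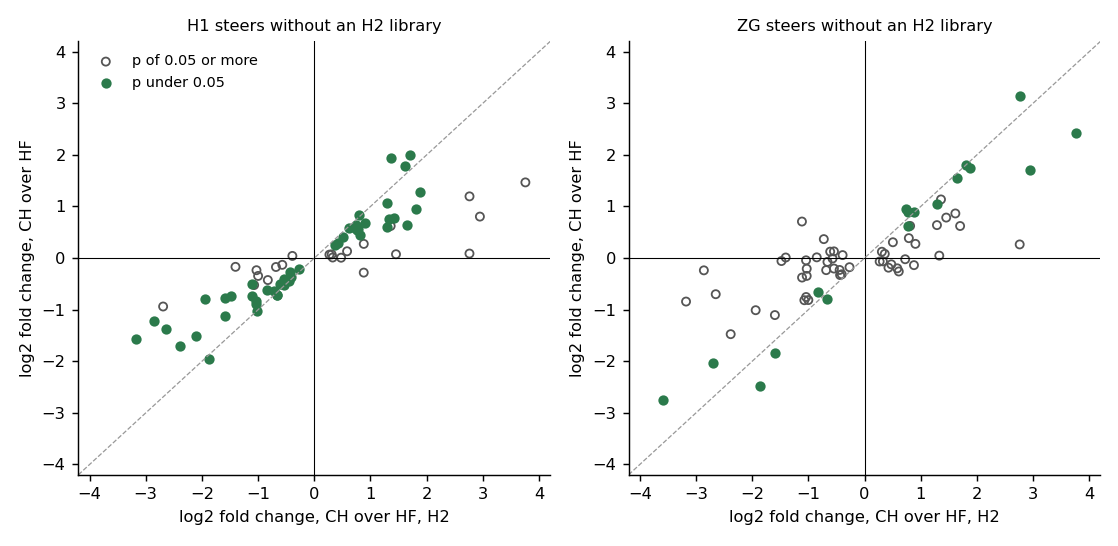
Log2 fold change of CH over HF for the H2 DEGs under H2 (x axes) against that in H1 (left, 69 genes) and ZG (right, 67 genes) steers that had no H2 library (y axes). Filled points had an unadjusted p under 0.05, the dashed line marks equal values, and 67 of the 69 H1 points share the sign seen under H2.

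In H2, 11 steer numbers also had a library in H1 or ZG, which gave 13 pairs of libraries. Across the 71 DEGs, which are not independent replicates, the deviations from the phase means correlated within 11 of the pairs with r of 0.69 to 0.92. In 10 of these 11 the r exceeded that with every other library of the same breed and other phase. The one that did not was CH steer 307 under H2 and H1, with r of 0.78 against a highest r of 0.82 with another library. The remaining pairs, of steers 1797 and 5612, had r of -0.33 and -0.44. Within H2, all 30 libraries were nearer to the mean of their labelled breed than to that of the other breed over the 71 DEGs, a measure that the selection of the DEGs favours.

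The levels of single genes show what repeated in a steer. LOC768255 was above the gap under H2 in CH steer 1100 (88.3 CPM) and was at 45.7 CPM there under H1, whereas CH steers 307, 364 and 1320 were at 1.46 to 4.64 CPM in every phase sampled. HF steers 1639, 2071, 2101, 2220 and 5632 were at 45.4 CPM or more for LOC768255 in each of their libraries. GIMAP8 was at 66.8 CPM or more for HF steers 2101 and 5632 in all their libraries, and ENSBTAG00000004459 was at 15.5 to 35.4 CPM in all libraries of CH steers 307, 364, 1100 and 1320.

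Steer numbers 1797 and 5612 did not keep all of these levels. The H2 library labelled HF 1797 had 0.810 CPM for ENSBTAG00000004459, 175 for GIMAP8 and 287 for LOC768255, and the H1 library labelled CH 1797 had 42.1, 20.6 and 44.7 CPM. The H2 library labelled HF 5612 had 1.81 CPM for ENSBTAG00000004459, 18.7 for GIMAP8 and 5.18 for LOC768255, and the ZG library labelled HF 5612 had 27.6, 17.0 and 257 CPM, so that GIMAP8 was similar in both. Whether each number stands for 1 animal was not tested. Without steer 1797, 64 genes were called, of which 58 were among the 71, and without both steers 50 were called, of which 47 were among the 71. All 6 named DEGs and the 4 identifiers given were called in both fits.

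**Figure D5:**
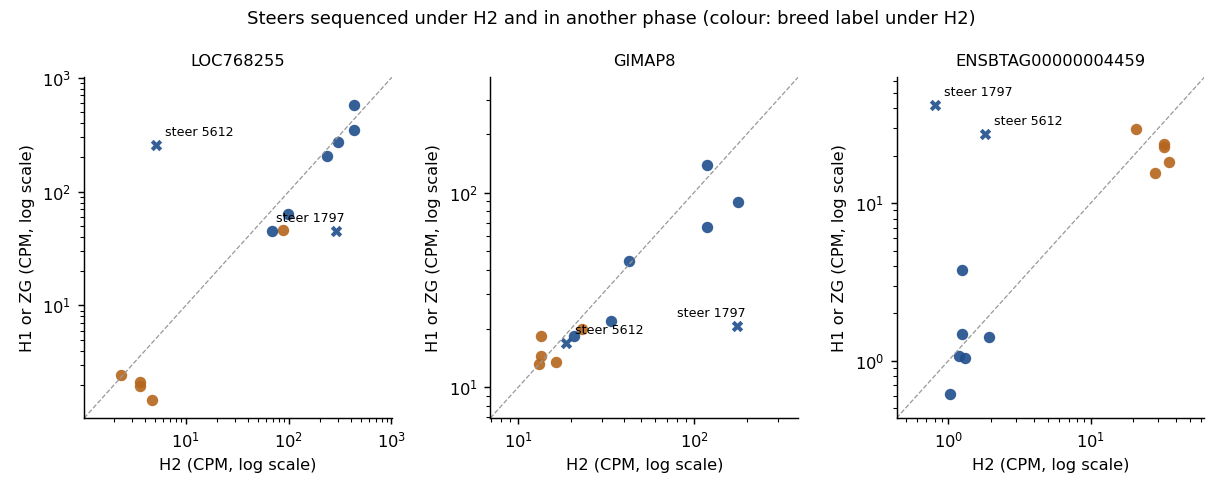
Level in CPM under H2 (x axes) and under H1 or ZG (y axes) for steers sequenced under H2 and in another phase, on log scales, with 1 point for each of 13 pairs of libraries coloured by the breed label under H2. Crosses mark steers 1797 and 5612, which leave the dashed line of equal values that the other pairs follow most clearly for LOC768255 and ENSBTAG00000004459.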

How the data were processed

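Liver RNA libraries were prepared with a TruSeq kit and sequenced as 50 bp single-end reads. Per the labels' processing notes the reads were aligned with STAR 2.5.3a to UMD3.1, and the study's methods name the Ensembl 87 annotation. The authors deposited raw counts of 24616 genes in 90 libraries, without normalization, so alignment and counting could not be varied. Libraries were grouped by their labels, and none was left out. P-values measure the spread between these steers, each sampled once per phase.

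Genes passing filterByExpr (a minimum count of 10) were tested in the 30 H2 libraries with edgeR 4.0.16 (R 4.3.3), using TMM normalization, RFI group and breed as terms and robust quasi-likelihood dispersions. SE was the absolute log2 fold change divided by the square root of F. The fit was tested on simulated data. CPM were scaled by TMM factors over 90 libraries. DESeq2 1.42.0 and limma 3.58.1 served as alternatives, with other filters, scalings, subsets and each library left out in turn. A further 4 alternatives were added after the data were examined.

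Symbols came from a supplementary list of the study and neighbours from RefSeq (ARS-UCD2.0). Named genes were those called with a symbol (the 10 smallest p and the 5 largest changes in each direction), up to 4 called members of each list or otherwise its 2 most abundant, and 2 unnamed identifiers in each direction. The comparison, the lists and the tests were chosen with earlier results of these data known.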

Additional observations from a re-analysis of the deposited data

Results flagged for a closer look

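In each of the 4 H2 groups of 5 to 9 steers, the highest and lowest CPM of 33 genes were set against the rest of the group by Dixon's criterion. With independent, normally distributed values, chance would mark about 1 in 20 groups, or 6.6 of the 132 tested, and 27 were marked. CPM were not log-transformed, and several marks repeat the same steer over related genes. The 27 marks therefore cannot be read as an excess over chance.

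HF steer 1797 was at 175 CPM for GIMAP8, with the next low RFI HF steer at 33.8, and at 33.0 CPM for NFIL3. CH steer 419 was highest among high RFI CH steers for DOCK8 (22.2 CPM), DGAT2 (78.2), FGG (31807), FGA (26548), HP (26048), IFI44 (99.1) and KIF23 (55.6). HF steer 1639 was highest among high RFI HF steers for FGG (38878 CPM), FGA (33129) and HP (7623) and lowest for GPD1 (111). HF steer 1645 was at 564 CPM for GSTA4, CH steer 1483 at 2.41 for ENSBTAG00000037539, and HF steer 2101 at 18.4 for FBP2. CH steer 454 was highest among low RFI CH steers for IRS2 (5.98 CPM), HSPB1 (310) and APOC3 (3915), and CH steer 493 for NFIL3 (63.6). HF steer 1661 was at 2.23 CPM for IRS2 and 334 for HSPA1A, HF steer 5588 at 14.3 for UHRF1, HF steer 5612 at 1.75 for FBP2, HF steer 2071 at 27.3 for NR1D1, and HF steer 2220 at 1554 for HP and 29.04 for PKHD1. No named gene had a breed effect that differed between H2 and H1 or between RFI groups at an adjusted p under 0.1 from edgeR.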

How the results depend on the processing

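The 71 calls rose to 157 with DESeq2, 284 with limma-voom and sample weights and 107 with all 90 libraries in one fit, and fell to 47 at an adjusted p under 0.05 and to 34 with at least 10 counts in every library, where 10043 genes were tested. They rose to 109, 43 higher in CH and 66 higher in HF, without CH steer 419 and HF steer 1639, an alternative chosen after seeing the data, and stood at 78 without CH steer 493. With low RFI steers alone 2 genes were called and with high RFI steers alone 5, in smaller groups. Leaving out 1 library at a time gave 53 to 92 calls, and 39 of the 71 DEGs were called in all 30 fits, among them the 6 with a symbol. For the 10 identifiers described in full, 418 of 437 values under an alternative kept direction and call, 19 kept direction without the call and 0 reversed. Most of these values came from fits with 1 library left out, and the 10 were chosen among the DEGs, which favours agreement. With low RFI steers alone, only LOC768255 and GIMAP4 of the 10 kept the call. With high RFI steers alone, only ENSBTAG00000004459, ENSBTAG00000009049 and ENSBTAG00000034402 kept it. The steer as a replicate block changed no call of the H2 minus H1 difference, and no paired analysis was possible for the breeds under H2 because no steer belongs to both breeds. Levels near 1 CPM, such as those of RTKN and CIDEC, rest on few reads.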
